A study of Rattus norvegicus with 10 samples.

Results

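The macrophages of rat liver were followed through 10 genes that mark Kupffer cells or macrophages: Cd5l, Clec4f, Aif1, Cd68, Cd163, Marco, C1qa, C1qb, C1qc and Vsig4. A gene was measured where an array probe set, the group of short probes that reads one transcript, carried that gene symbol and no other. By this rule 8 of the 10 genes were measured, which is 8 of 14217 genes on the array, with 10 probe sets among 31042 tested, and all probe sets of each gene were kept. Marco and Vsig4 had no probe set naming them alone and were not analysed here. The livers came from 10 male rats of the outbred Sprague-Dawley strain, of which 5 were controls and 5 received effluent of the bulk drug industry. Dose, duration and age are not given in the sources used here, and the labels give no genotype or other agent for either group. Total RNA of whole liver was hybridised to Affymetrix 3' expression arrays, 1 array per animal.

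Kupffer cells are the resident macrophages of the liver. They sit in the sinusoids, where they take up particles, bacteria and old red cells from the blood and make the C1q protein that starts the classical complement pathway. Their identity depends on factors such as PU.1, the master regulator of myeloid cells, and Clec4f is the marker that most sharply sets them apart from other macrophages in rodents. RNA of whole liver comes mostly from hepatocytes, so these genes read a minor cell population of the tissue. In such bulk samples fewer macrophages and less of these RNAs per macrophage cannot be told apart.

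The levels of the markers were read against the median probe set, as no detection calls were used here. Values are on the log2 scale, on which a difference of 1 is a doubling, and the median probe set of the array had a mean of 5.47. Of the 10 probe sets, 9 had a mean above it, the exception being the lower Cd5l probe set. All 8 genes by their brighter probe set were above it. The tissue label was borne out by the hepatocyte markers, with 11 of 11 measured genes above the median probe set and albumin at 14.99 ± 0.01 (SD, n = 5) in controls and 14.99 ± 0.01 in exposed animals. The arrays were alike, with correlations between 0.991 and 0.996, medians between 5.43 and 5.49 and 0 pairs of identical arrays. Set against this, 2 animals stood apart in the markers, control animal 5 and exposed animal 3, and the exposed minus control values of the markers are given with and without them after the account of each gene.

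Promoters are shown for 4 of the 8 measured members. All 8 varied together across animals, so the 4 shown are not set apart by that pattern. The sequences are from RefSeq assembly GRCr8 and run 5' to 3' along the gene from 250 bases before to 50 bases after its start. Capitals mark GAGGAA, the core of PU.1 sites, on either strand, so the opposite strand reads TTCCTC. The Cd5l window is chr2:175088665-175088964 on the plus strand. The windows of the others lie on the minus strand, at chr5:154407778-154408077 for C1qb, chr10:54882392-54882691 for Cd68 and chr4:117696358-117696657 for Clec4f.
Cd5l: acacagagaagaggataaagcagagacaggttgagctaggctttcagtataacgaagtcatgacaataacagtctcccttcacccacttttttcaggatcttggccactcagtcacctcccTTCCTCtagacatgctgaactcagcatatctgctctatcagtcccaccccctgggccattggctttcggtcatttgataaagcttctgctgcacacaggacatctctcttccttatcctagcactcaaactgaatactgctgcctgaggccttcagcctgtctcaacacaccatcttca
C1qb: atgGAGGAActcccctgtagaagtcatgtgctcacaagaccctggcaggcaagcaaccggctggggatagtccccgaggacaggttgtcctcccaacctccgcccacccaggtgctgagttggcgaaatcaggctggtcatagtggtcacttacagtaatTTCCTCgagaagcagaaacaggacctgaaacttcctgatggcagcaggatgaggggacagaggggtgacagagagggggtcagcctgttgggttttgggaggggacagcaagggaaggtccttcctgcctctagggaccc
Cd68: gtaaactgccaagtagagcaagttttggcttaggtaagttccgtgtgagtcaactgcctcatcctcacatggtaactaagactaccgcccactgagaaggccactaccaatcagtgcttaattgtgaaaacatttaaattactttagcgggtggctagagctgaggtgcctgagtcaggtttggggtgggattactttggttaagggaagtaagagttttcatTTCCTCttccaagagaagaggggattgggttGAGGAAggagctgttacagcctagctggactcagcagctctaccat
Clec4f: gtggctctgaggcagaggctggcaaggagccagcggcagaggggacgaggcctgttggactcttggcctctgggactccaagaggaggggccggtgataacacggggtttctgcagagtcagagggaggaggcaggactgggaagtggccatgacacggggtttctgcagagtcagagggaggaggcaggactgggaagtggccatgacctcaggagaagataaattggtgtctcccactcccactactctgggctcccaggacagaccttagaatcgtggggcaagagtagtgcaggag

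A promoter entry was held for 8 of the 10 genes, all but Aif1 and C1qc. The PU.1 core was found in 4 of these 8 windows: C1qb with 2 matches, Cd68 with 2, Cd5l and Marco. It was absent from the windows of C1qa, Cd163, Clec4f and Vsig4. In Cd5l the match starts 129 bases before the start of the gene, and in C1qb the matches start 247 and 90 bases before it. In Cd68 one match starts 27 bases before the start and the other 4 bases after it. Among all 33469 promoters of the same length, 27.6% held this short motif. The D box bound by the clock output factor Dbp, searched as TTATGTAA or TTACGTAA, was in 0 of 8 windows and 1.01% of all promoters, and the clock E box CACGTG in 0 of 8 and 6.42%. All motifs were searched on both strands. These counts describe letters in a window and not bound sites.

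Clec4f is a galactose-binding lectin of Kupffer cells. It read 10.74, 10.82, 10.80, 10.50 and 9.79 in control animals 1 to 5, and 10.81, 10.94, 10.11, 10.95 and 10.92 in exposed animals 1 to 5. In each group 1 animal was lowest, control animal 5 and exposed animal 3. Control animal 4 came next at 10.50, and the remaining animals lay between 10.74 and 10.95. The groups overlapped. Exposed minus control was 0.22 ± 0.21 (SE; limma, adjusted p = 0.923).

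The 3 chains of C1q, the recognition molecule of the classical complement pathway, are made by C1qa, C1qb and C1qc, which lie next to one another on rat chromosome 5 with 0 other annotated genes between them. C1qa read 10.51, 10.53, 10.61, 10.12 and 9.56 in controls and 10.43, 10.72, 9.82, 10.73 and 10.69 in exposed animals. C1qb read 9.77, 9.82, 9.79, 9.49 and 8.49 in controls and 9.80, 9.91, 9.01, 9.95 and 9.95 in exposed animals. C1qc read 9.53, 9.51, 9.62, 9.23 and 8.71 in controls and 9.48, 9.70, 8.92, 9.68 and 9.65 in exposed animals. All 3 chains were lowest in control animal 5, next lowest in exposed animal 3 and then in control animal 4. Exposed minus control was 0.21 ± 0.22 for C1qa (SE; limma, adjusted p = 0.928), 0.25 ± 0.25 for C1qb (adjusted p = 0.928) and 0.17 ± 0.18 for C1qc (adjusted p = 0.933), with overlapping groups for each.

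Cd68, a glycoprotein of the endosomes and lysosomes of macrophages, read 8.77, 8.87, 8.86, 8.32 and 7.65 in controls and 8.79, 9.03, 7.97, 8.79 and 8.92 in exposed animals. The same 2 animals were lowest, and control animal 4 came next. Exposed minus control was 0.20 ± 0.24 (SE; limma, adjusted p = 0.938). Cd163, the receptor that clears haemoglobin bound to haptoglobin, read 7.19, 7.44, 7.33, 6.67 and 6.39 in controls and 7.05, 7.46, 6.46, 7.10 and 7.19 in exposed animals. Here exposed animal 3 was almost as low as control animal 5, and control animal 4 was close above them. Exposed minus control was 0.05 ± 0.21 (adjusted p = 0.985), and the groups overlapped.

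Cd5l, a secreted scavenger protein of tissue macrophages that protects them from apoptosis, had 2 probe sets. The brighter one read 10.09, 10.43, 9.75, 9.33 and 8.89 in controls and 9.98, 10.59, 9.20, 10.37 and 10.13 in exposed animals. It had the widest range of the members, 1.71 on the log2 scale or 3.27-fold from the lowest to the highest animal. The dimmer one read 5.59, 5.53, 5.51, 5.11 and 4.33 in controls and 5.20, 5.87, 4.70, 5.31 and 5.38 in exposed animals, and correlated with the brighter one at r = 0.88 over the 10 animals. Both put control animal 5 lowest and exposed animal 3 next. They differed in the size of the group difference, which was 0.36 ± 0.29 for the brighter (SE; limma, adjusted p = 0.909) and 0.08 ± 0.25 for the dimmer (adjusted p = 0.976).

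Aif1, the actin-binding protein Iba1 of macrophages and microglia, followed the others less closely. Its brighter probe set read 7.53, 8.22, 8.09, 7.18 and 6.72 in controls and 8.13, 7.94, 7.30, 7.84 and 8.20 in exposed animals. Control animal 5 was again lowest, but control animal 4 came before exposed animal 3. Its other probe set moved little, from 5.81 in control animal 4 to 6.14 in exposed animal 4, and correlated with the brighter one at r = 0.48. Of all probe sets 71.7% had a larger SD over the animals than this one. Exposed minus control was 0.34 ± 0.26 (SE; limma, adjusted p = 0.909) for the brighter and 0.08 ± 0.07 (adjusted p = 0.909) for the other.

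**Figure D1:**
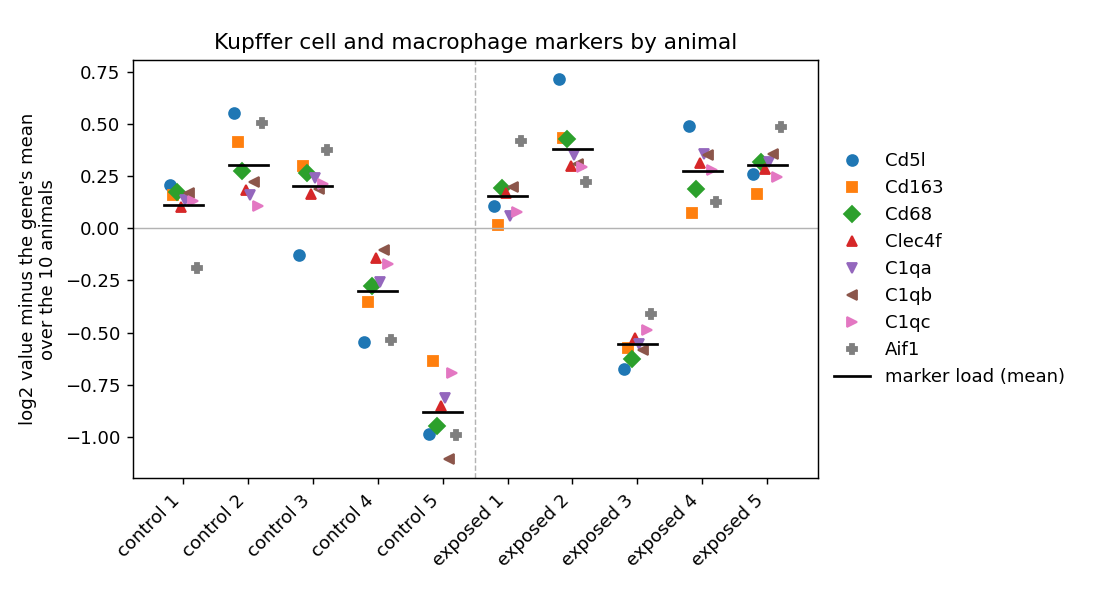
Values of the 8 measured markers (coloured symbols, brighter probe set of each gene) in each of the 10 animals, as log2 value minus the gene's mean over the animals; black bars are their mean, the marker load. Every marker is below its mean in control animals 4 and 5 and exposed animal 3, and the marker load of these animals is -0.30, -0.88 and -0.56.

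The markers varied between animals more than most probe sets of the array. By their brighter probe set, the range over the 10 animals was 0.99 (C1qc) to 1.71 (Cd5l) on the log2 scale, with a median of 1.28. Only 0.625% to 2.78% of all probe sets had a larger SD over the animals than a marker had.

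The level shared by the markers was summarised per animal as the marker load, the mean over the 8 genes of value minus the gene's mean over all animals. It was 0.11, 0.30, 0.20, -0.30 and -0.88 in control animals 1 to 5, and 0.16, 0.38, -0.56, 0.27 and 0.30 in exposed animals 1 to 5. Low animals occurred in both groups, and 7 animals lay between 0.11 and 0.38. The mean was -0.11 ± 0.49 (SD, n = 5) in controls and 0.11 ± 0.38 in exposed animals, a difference of 0.22 or 1.17-fold that is smaller than the spread within either group. No p-value is given for this sum over chosen genes.

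Control animal 5 had the lowest value of all 10 animals for 8 of 8 markers. Its shortfall against the median of the other controls ran from -0.82 for C1qc, a 1.76-fold lower level, to -1.29 for C1qb, 2.44-fold lower, with a median of -1.01. Exposed animal 3 fell short of the median of the other exposed animals by 0.69 for Cd163, 1.62-fold lower, up to 1.05 for Cd5l, 2.07-fold lower, with a median shortfall of -0.85. Control animal 4 was among the lowest 3 for 8 of 8 markers. Its shortfall against controls 1 to 3 was larger for Aif1 (-0.91), Cd5l (-0.76), Cd163 (-0.66) and Cd68 (-0.55) than for C1qa (-0.42), Clec4f (-0.31), C1qc (-0.31) and C1qb (-0.29). The animal thus stood lower in the first 4 genes than in the lectin and the C1q chains, a difference that was not tested.

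Control animal 5 and exposed animal 3 were the lowest 2 animals for 7 of the 8 markers, Aif1 being the exception. Over all 14217 genes, each by its brighter probe set, 637 genes (4.48%) had these as the lowest 2 animals. The animals were picked out from the markers themselves, so this share is a description.

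The genes were closely tied to one another. All 28 pairs of the 8 markers were compared across the 10 animals, each point being 1 liver whose genes share an array. Pearson's r ran from 0.81 (Cd5l with Aif1) to 1.00 (C1qa with C1qc, 0.998), with a median of 0.92. Spearman's rho ran from 0.52 to 0.98, with a median of 0.83. By a two-sided permutation test with 100000 resamples and Benjamini-Hochberg adjustment over the 28 pairs, 28 of 28 had an adjusted p for r of at most 0.00516. For rho 26 of 28 passed, the exceptions being Aif1 with C1qa (permutation p = 0.088, adjusted 0.0912) and Aif1 with C1qc (0.134, adjusted 0.134). With group means removed the median r was 0.93. The 28 pairs come from 8 genes in the same 10 animals, so they are not independent of one another. The permutation tests used all 10 animals, and none was run without the low animals.

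The tightest ties were between C1qa and C1qc, with r = 0.998 and rho = 0.98 (permutation p = 1e-05 for both, the smallest the permutations can give), and between Clec4f and C1qb, with r = 0.995 and rho = 0.96. Clec4f tracked C1qb more closely than C1qa did (r = 0.97), although C1qa and C1qb encode chains of one protein from neighbouring genes. The difference between these correlations was not tested. Cd68 and Cd163 had r = 0.95, and Cd163 with C1qb had 0.87.

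Part of each correlation lay in the low animals. Leaving out the 2 animals farthest from the median of the first gene of each pair gave r between 0.56 and 0.99, with a median of 0.80. These were control animal 5 and exposed animal 3, except in 5 pairs led by Aif1, where they were control animals 4 and 5. Leaving out control animal 5 and exposed animal 3 for every pair gave a median of 0.81. Over those 8 animals Clec4f, C1qa, C1qb and C1qc kept r between 0.94 and 0.99 with one another, while Aif1 with Cd5l had 0.56 and Cd163 with C1qb had 0.68. These 8 animals still include control animal 4, which was among the lowest 3 for every marker measured.

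**Figure D2:**
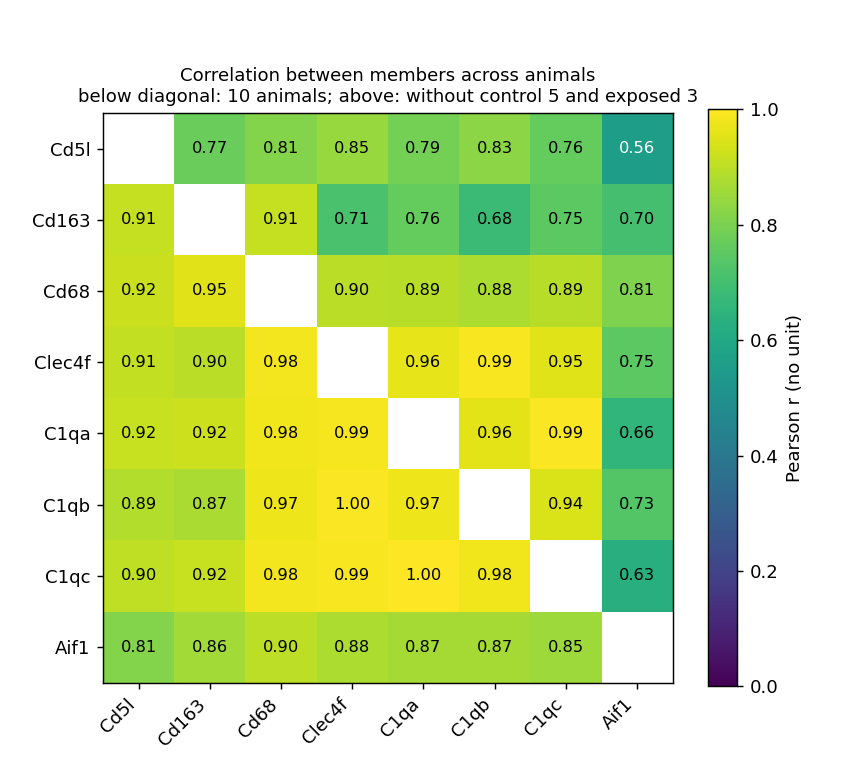
Pearson r between each pair of the 8 measured markers; below the diagonal over all 10 animals, above it over the 8 animals other than control animal 5 and exposed animal 3. The block of Clec4f and the 3 C1q genes stays at 0.94 or above on both sides, and the Aif1 column above the diagonal holds the lowest value, 0.56.

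Each marker had an r above 0.8 with all 7 others, whereas 1.44% (Aif1) to 2.10% (C1qc) of all genes had such an r with it. The median r of a marker with all genes was near 0, from 0.02 to 0.03. Ranked by r to the load of the other 7 markers among 14210 genes, Cd68 stood at place 1 (r = 0.99). It was followed by Clec4f at place 4, C1qa at 5, C1qc at 7, C1qb at 17, Cd163 at 59, Cd5l at 80 and Aif1 at 132 (r = 0.88). Cd68 was therefore the gene whose animal-to-animal pattern lay nearest to the rest, and Aif1 the member farthest from it.

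The genes outside the list whose pattern was most like the marker load were taken from 9658 genes above the median probe set. In order they were Anxa3, an annexin (r = 0.991), Fcer1g, the signalling chain of Fc receptors (0.988), Fcgr1a, a high-affinity IgG receptor (0.983), and Cd53, a leukocyte tetraspanin (0.983). Next came Cd300c2 (0.982), Cyba, a subunit of the phagocyte NADPH oxidase (0.981), Bcl2a1 (0.980) and Tyrobp, an adaptor of myeloid receptors (0.979). Of the 9658 genes, 100 had an r above 0.9 and 8 one below -0.9. The most opposite were Ddx28 (-0.938), the mitochondrial phosphatase Ppm1k (-0.931), Ctdsp1 (-0.924), Mb21d2 (-0.913) and Wdr43 (-0.912). These correlations describe 10 animals, and the genes of an animal share its array.

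Other macrophage genes followed the markers in part. Of 40 further genes of macrophages and Kupffer cells 34 were measured, 29 of them above the median probe set, and their mean per animal was -0.46 in control animal 5, -0.34 in exposed animal 3 and -0.19 in control animal 4. In the other animals it lay between 0.08 and 0.26. Of the 34 genes, 22 had an r above 0.8 to the marker load, against 2.04% of all other genes, and 20 had control animal 5 and exposed animal 3 as the lowest 2. Among them were Csf1r, the receptor of the macrophage growth factor (r = 0.95), Adgre1, which encodes the F4/80 antigen (0.93), the lysosomal protease Ctss (0.97) and Axl, a receptor for dying cells (0.97).

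Some genes often used for macrophages did not track the load. Mertk, another receptor for dying cells, had r = -0.33, the nuclear receptor gene Nr1h3 had -0.03, Ncf1 had 0.17, Ms4a7 had 0.25, the endotoxin co-receptor Cd14 had 0.31 and the lysozyme gene Lyz2 had 0.33. These values stood beside 0.88 to 0.99 for the members against the load of their fellow members. Hmox1, which degrades haem, had 0.90, and the iron exporter Slc40a1 had 0.69.

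The complement genes next to C1q in the pathway followed the load to very different degrees. Of 15 listed partners 10 were measured, and only properdin (Cfp), a stabiliser of the alternative pathway convertase that leukocytes make, had an r above 0.8 to the load (0.96). The C1 proteases C1r and C1s had r = -0.27 and -0.11, C3 had -0.44 and the C1 inhibitor gene Serping1 had -0.43. The complement regulator genes Cr1l, Cd46 and Cd55 had 0.54, 0.43 and 0.27. The mean of the 10 partners per animal had r = 0.84 to the load, and 0.77 over the 8 animals other than control animal 5 and exposed animal 3. The median r of the single partners was 0.01, so this mean does not describe most of them. Cfp, with a mean of 7.97, read 7.02 in control animal 5 and 7.23 in exposed animal 3. No other partner lay as far below its mean in these animals. In exposed minus control, 6 of the 10 were higher and 4 lower, 0 were called, and the smallest p values belonged to Cd55 (0.09 ± 0.06, SE), C3 (-0.05 ± 0.05) and C1s (0.07 ± 0.07).

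Markers of other cell types moved with the load to different degrees. Lymphocyte markers, of which 13 of 16 were measured but only 2 lay above the median probe set, had a mean of -0.22 in control animal 5, -0.21 in exposed animal 3, -0.21 in control animal 4 and 0.02 to 0.20 in the others. Their r above 0.8 to the load was held by 4 of 13: Cd5, Cd79b, Ms4a1 and Prf1. The lymphocyte mean per animal had r = 0.90 to the load, and 0.86 over the 8 animals other than control animal 5 and exposed animal 3. For the other macrophage genes these values were 0.98 and 0.94. Control animal 5 and exposed animal 3 were the lowest 2 for 6 of the 13 lymphocyte genes, against 4.48% of all genes. The pattern was thus not particular to macrophage genes. Monocyte markers (7 of 9 measured) ranged from -0.16 to 0.10, with 1 gene, Plac8, above an r of 0.8. Neutrophil markers (7 of 10, with 1 above the median probe set) ranged from -0.17 to 0.10 and dendritic cell markers (5 of 8) from -0.12 to 0.16, with 0 genes above that r. The means of the monocyte, neutrophil and dendritic lists had r = 0.73, 0.75 and 0.58 to the load. Over the same 8 animals these were 0.29, 0.32 and 0.51.

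Among the cells of the vessel wall and bile ducts, endothelial markers (9 of 12 measured) lay at -0.15 in both low animals and between -0.09 and 0.24 in the rest. Fcgr2b, an IgG receptor of sinusoidal endothelium and macrophages, was the 1 gene of 9 with an r above 0.8 (0.94). Stellate cell markers (12 of 12) were lowest in control animals 5 and 2, both at -0.25, against -0.05 in exposed animal 3, and bile duct markers (6 of 7) were at 0.01 and -0.06 in the 2 low animals. Hepatocyte markers (11 of 12) had the smallest span of these lists, from -0.09 to 0.11, with 0.09 in control animal 5, 0.05 in exposed animal 3 and 0.11 in control animal 4. Some read near the highest value on the arrays, which was that of Alb in control animal 2. Alb, Ttr and Serpina1, with means of 14.99, 14.50 and 14.55, had SDs of 0.01 to 0.02 in controls. Hnf4a and Tat, with means of 12.18 and 9.63, had 0.32 and 0.36, and the others 0.02 (Ahsg) to 0.18 (Apob). Whether brightness narrowed the span was not tested, so the span is not read here as steadiness. The hepatocyte mean per animal ran opposite to the load, with r = -0.77, and -0.74 over the 8 animals other than control animal 5 and exposed animal 3. Single hepatocyte genes had r from -0.77 (Tat) to 0.32 (Serpina1), with a median of -0.04. Red cell and platelet markers (7 of 8) were at 0.22 in control animal 5 and -0.15 in exposed animal 3. The part of these cell types in the marker pattern was not tested.

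**Figure D3:**
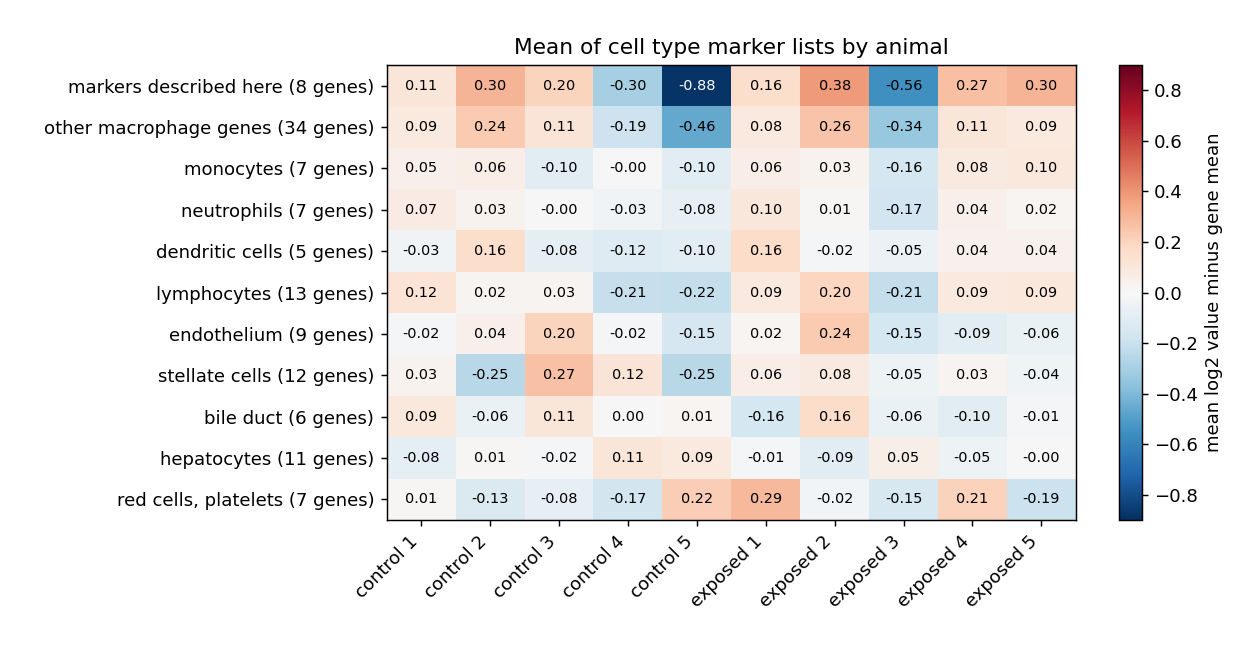
Mean of each cell type's marker genes in each animal, as log2 value minus the gene's mean over the 10 animals; red is higher and blue lower. The blue cells of control animal 5 and exposed animal 3 are deepest in the markers described here (-0.88 and -0.56) and in the other macrophage genes (-0.46 and -0.34), and weaker in lymphocyte markers (-0.22 and -0.21).

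Dbp is an output gene of the circadian clock whose RNA swings widely over the day in liver, and the time of day at which the livers were taken is not given in the sources used here. It read 5.80, 6.50, 6.97, 8.67 and 9.34 in control animals 1 to 5, and 7.28, 6.79, 8.65, 8.80 and 9.47 in exposed animals 1 to 5. The 3 animals with low marker load (control 4, control 5 and exposed 3) all had Dbp at 8.65 or above. Exposed animals 4 and 5 had Dbp just as high, at 8.80 and 9.47, with a marker load of 0.27 and 0.30. Among the controls high Dbp and low markers thus went together, while among the exposed animals they did so in 1 of 3.

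In a limma fit within groups the markers were lower where Dbp was higher, by -0.16 (C1qc) to -0.30 (Cd5l) on the log2 scale per unit of log2 Dbp, with a median of -0.22 against -0.0029 over all genes. At the adjusted threshold 0 of the 10 probe sets were called, against 0.300% of all probe sets, with adjusted p between 0.162 for the dimmer Cd5l probe set and 0.876 for the weakly varying Aif1 probe set. At an unadjusted p under 0.05, 9 of 10 had a negative slope, against 5.67% of all probe sets. As the members vary together, these 9 are not independent of one another.

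The slope leaned on control animal 5, without which its median over the probe sets was -0.10. Without both low animals it was -0.07. Across the 10 animals r with Dbp ran from -0.65 for Cd163 (permutation p = 0.0491, adjusted 0.158 over 16 relations) to -0.41 for Aif1, and rho from -0.54 to 0.04. Without control animal 1 and exposed animal 5, the farthest in Dbp, r ran from -0.88 to -0.69. Over the 8 animals other than control animal 5 and exposed animal 3 it ran from -0.52 to 0.08. Among the measured clock genes other than Dbp itself, Bmal1, a core activator of the clock, was the only one whose slope on Dbp was called. Its slope was -0.42 per unit (limma, adjusted p = 0.007), and it had r = 0.23 to the marker load.

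RNA quality was read from the array as the difference in log2 signal between 3' and 5' control sets of Gapdh and beta-actin, which grows as RNA breaks down. It was 0.508, 0.578, 0.624, 0.626 and 0.735 in control animals 1 to 5, and 0.545, 0.604, 0.578, 0.592 and 0.494 in exposed animals 1 to 5. Control animal 5, with the lowest marker load, had the highest ratio of all. Exposed animal 3, with the next lowest load, had 0.578, in the middle of the animals. Among the controls the ratio and Dbp both rose from animal 1 to animal 5, so their relations to the markers cannot be told apart there. With the ratio as a further covariate the median slope on Dbp over the 10 probe sets went from -0.22 to -0.14 (limma, smallest adjusted p = 0.492).

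Within groups the markers were lower by -0.31 (C1qc) to -0.49 (C1qb) on the log2 scale per 0.1 of the ratio, with a median of -0.41 against -0.0052 over all genes. Called at the adjusted threshold were 0 of 10 probe sets and 0% of all probe sets, with adjusted p from 0.418 to 0.905 for the markers. At an unadjusted p under 0.05, 7 of 10 had a negative slope, against 4.80% of all probe sets. Across the 10 animals r ran from -0.70 (C1qb, permutation p = 0.0352, adjusted 0.158) to -0.49 (Cd163), and 0 of the 16 relations with Dbp or RNA quality passed adjustment. Without control animal 5 and exposed animal 5, the farthest in the ratio, r lay between -0.20 and -0.01, so the relation did not hold without them. Over the 8 animals other than control animal 5 and exposed animal 3 it ran from -0.39 to -0.10, with a median of -0.25. In the fits within groups that left out 1 animal, the median slope over the 10 probe sets went from -3.90 per unit of the ratio to -1.10 without control animal 5, and was -4.15 without exposed animal 5.

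**Figure D4:**
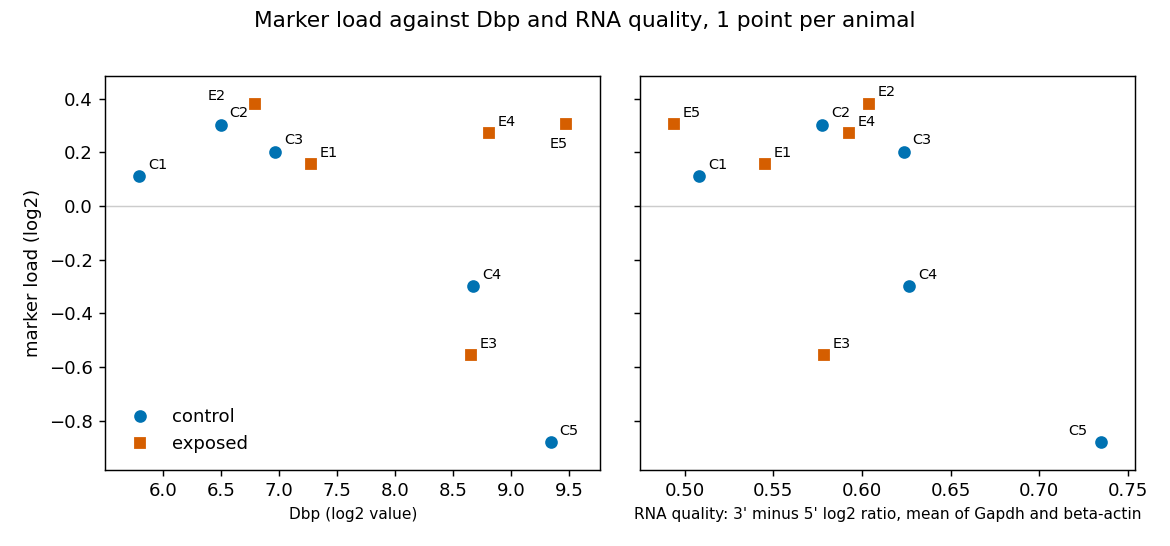
Marker load of each animal (vertical axis, log2) against its log2 value of Dbp (left) and its 3' minus 5' RNA quality ratio in log2 units (right); circles are controls (C1 to C5), squares are exposed animals (E1 to E5). On the left, E4 and E5 combine high Dbp with a load of 0.27 and 0.30, while C5 and E3 at like Dbp have -0.88 and -0.56. On the right, C5 alone lies far out, at a ratio of 0.735.

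The comparison of exposed with control livers asks whether the effluent changed the level of these macrophage genes. The 10 probe sets were higher in the exposed group by 0.05 to 0.36 on the log2 scale. Of them 10 of 10 lay above 0, against 52.0% of all probe sets, but none was called. By limma 0 of the 10 members' probe sets passed the adjusted threshold (0% of all probe sets) and 0 an unadjusted p under 0.05 (5.46% of all probe sets), with adjusted p between 0.909 and 0.985. The median over the 8 genes was 0.22, against -0.0021 over all genes, and the markers are not independent of one another. The 95% interval for Cd5l ran from -0.27 to 0.99, so these data do not show that the levels were alike. No marker separated the groups.

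The size of the difference, and the direction of 3 probe sets, depended on which animals were counted. Without control animal 5 the median over the 8 genes was 0.02, with 7 of 10 probe sets above 0 and values from -0.14 (dimmer Cd5l probe set) to 0.16 (brighter Cd5l probe set). Without exposed animal 3 it was 0.38. Leaving out exposed animal 2, which had the highest load, turned Cd163 to -0.06 and the dimmer Cd5l probe set to -0.07, and leaving out control animal 4 turned Cd163 to -0.04. Without both control animal 5 and exposed animal 3 the median over the 8 genes was 0.19, with 10 of 10 probe sets above 0, from 0.01 to 0.37. With the RNA quality ratio as a covariate it was 0.02, with 6 of 10 above 0, and with Dbp as a covariate 0.37. None of these fits called a member.

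**Figure D5:**
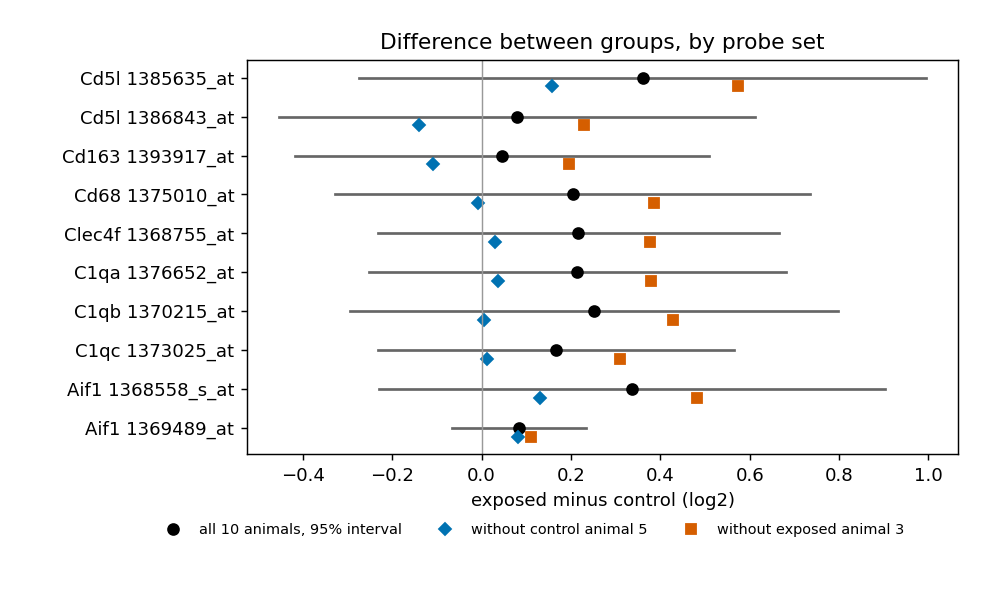
Exposed minus control for each of the 10 probe sets on the log2 scale; black points with lines are the limma estimates from all 10 animals with 95% intervals, diamonds leave out control animal 5 and squares leave out exposed animal 3. All 10 intervals span 0, and the diamonds lie between -0.14 and 0.16.

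The lists of other genes were compared between the groups in the same fit. Of the 34 further macrophage genes 27 were higher and 7 lower in exposed animals, with a median of 0.07 and 0 called, against 0 called of all probe sets. The smallest p values were those of the toll-like receptor genes Tlr4 (0.28 ± 0.18, SE) and Tlr2 (0.20 ± 0.16) and of the IgG receptor gene Fcgr3a (0.23 ± 0.19). Lymphocyte markers were higher for 11 of 13, led by Cd3d (0.20 ± 0.09), Cd52 (0.29 ± 0.16) and Nkg7 (0.14 ± 0.10), again with 0 called. Monocyte markers were higher for 3 of 7, with Cx3cr1 at 0.18 ± 0.06, Ccr2 at 0.20 ± 0.12 and F13a1 at -0.17 ± 0.08, and none of them passed adjustment (limma, adjusted p of at least 0.879). Higher in exposed animals were also 5 of 5 dendritic, 7 of 12 stellate, 4 of 7 red cell and platelet and 4 of 9 endothelial markers. The counts were 3 of 7 for neutrophil, 3 of 11 for hepatocyte and 1 of 6 for bile duct markers. Over all probe sets the share was 52.0%.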

How the data were processed

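Each array stands for 1 of 10 rats. The authors deposited one log2 value for every probe set and array. The submitters' processing notes name RMA and R 2.8.1. RMA equalises the arrays, so a shift shared by most genes is removed. Levels of different probe sets were compared only with the median probe set or the highest value, and to choose the brighter probe set of a gene. Of 31099 probe sets 57 control sets were left out. The platform annotation gave a single gene for 20826 probe sets, several for 436 and none here for 9780, and 20758 matched RefSeq (GRCr8) by Entrez number.

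Group differences and slopes on Dbp or the RNA quality ratio were fitted over the whole table with limma 3.58.1 in R 4.3.3 (lmFit, eBayes, two-sided, Benjamini-Hochberg, threshold 0.05), after a check on simulated data. Correlations used 100000 permutations. The number of arrays limits the precision. Alternatives covered normalization, a filter on low values, covariates, weights, the replicate number as a block and leaving out animals.

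The members, lists and tests were chosen with earlier results of these data known. Named genes are all members, up to 3 of each other list by smallest unadjusted p, the 8 genes most and 5 least like the marker load, and Dbp. Other list genes named by their r, such as Csf1r, Mertk and Cfp, were chosen after their values were seen. The scanner files were not used here.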

Additional observations from a re-analysis of the deposited data

Results flagged for a closer look

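Values of a single animal that lay far from the other 4 of the same group, judged by Dixon's 95% limit, were found in 20 of 124 sets of values, where chance alone flags about 1 in 20. The count cannot be read against that share: the sets vary together, and 9 of the 20 belong to genes chosen because they followed or opposed the marker load, which is itself among the 20. Given with the range of the other 4 animals in parentheses, exposed animal 3 was low among the markers for Clec4f at 10.11 (10.81 to 10.95), C1qb at 9.01 (9.80 to 9.95), C1qc at 8.92 (9.48 to 9.70) and Cd68 at 7.97 (8.79 to 9.03), and in the marker load at -0.56 (0.16 to 0.38).

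Control animal 5 was low for C1qb at 8.49 (9.49 to 9.82). For genes with a pattern like the markers, exposed animal 3 read 8.54 (9.44 to 9.61) for Anxa3, 6.23 (6.95 to 7.12) for Bcl2a1, 7.17 (7.59 to 7.71) for Cd300c2, 7.06 (7.86 to 8.13) for Cd53 and 7.41 (8.19 to 8.48) for Cyba. It also read 8.56 (9.33 to 9.44) for Fcer1g, 6.92 (7.34 to 7.38) for Fcgr1a, 6.34 (6.76 to 6.92) for Fcgr3a and 7.17 (7.81 to 7.98) for Tyrobp, and was high for Ppm1k at 9.32 (8.37 to 8.61).

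The remaining 4 lay elsewhere. Control animal 1 read 12.66 (12.91 to 12.99) for C1s, control animal 3 read 8.79 (8.58 to 8.64) for Anxa4, and exposed animal 1 read 4.52 (4.73 to 4.81) for Cd3d and 3.32 (3.11 to 3.15) for Cd55.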

How the results depend on the processing

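With the RNA quality ratio as a covariate, exposed minus control turned negative for C1qb (-0.00071), Cd68 (-0.023), the dimmer Cd5l probe set (-0.13) and Cd163 (-0.12). Leaving out 1 animal at a time gave -0.11 to 0.19 for Cd163, -0.0087 to 0.39 for Cd68, -0.14 to 0.23 for the dimmer Cd5l probe set and 0.02 to 0.38 for the median over the markers. The same set of fits called 0 to 1 probe sets of the array, the single one being Mx2 without exposed animal 1 (limma, adjusted p = 0.000661). Probe sets with a slope on Dbp numbered 93, 32 with RNA quality as a further covariate, 16 to 86 without 1 animal (lowest without control animal 5; 43 without control animal 1, 47 without control animal 4, 51 without exposed animal 1 and 58 without exposed animal 5) and 7 without both low animals, an alternative chosen after seeing the data. The median r between markers was 0.83 as Spearman's rho and 0.81 without both low animals. With the replicate number as a block (replicate block) 0 probe sets were called between groups and the median over the markers was 0.22. Same-numbered animals deviated from their group means with r between -0.07 and 0.09. The labels do not say whether the numbers pair the animals, and these r values cannot decide it. Dbp rose with the number from control animal 1 to 5 and from exposed animal 2 to 5. Each array centred on its median, quantile normalization, array weights, a trended prior and the filter on low values called 0 probe sets and turned no marker's direction. The number of animals limits all of this: the standard error of a marker's difference was 0.18 to 0.29.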
